A study of Rattus norvegicus with 8 samples.

Results

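Neurons of the rat CA3 hippocampus that stained with Fluoro-Jade 24 h after fluid percussion brain injury, called dying neurons, were compared with CA3 neurons of sham-injured rats. The comparison holds 4 of the 8 arrays of the series, 2 of dying and 2 of sham neurons, and 12196 of the 18341 genes with a symbol on the array. Arrays were assigned by their labels, and a gene was tested when both sham arrays, both dying arrays or all 4 detected its probe well above background. All groups came from Sprague-Dawley rats, male according to the methods, whose age is not given. Brains were taken 24 h after a moderate fluid percussion injury or a sham injury, or from untreated, naïve rats. Single neurons were captured by laser from stained frozen sections, and RNA of many neurons from several rats was pooled, amplified and hybridised to 1 array. Surviving neurons, which lay in the same injured hippocampi and did not take up the stain, and naïve neurons were measured on 2 arrays each and are used here for reference. The study asked how gene expression differs between neurons that die and neurons that live after brain trauma.

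Replicates are separate pools, so the tests measure the spread between these arrays, and the number of arrays limits the precision. The 2 sham and 2 naïve arrays were on 1 slide and the 2 dying and 2 surviving arrays on another, and the scan and the version of the extraction protocol were split in the same way. Injury and slide therefore cannot be told apart in the dying against sham comparison, and no fit with the slide as a block was possible. The labels name 2 amplification kits without saying which pool was amplified with which. Differences between dying and surviving neurons, which share a slide, are given where they add to the main values.

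CA3 pyramidal neurons are large excitatory cells that receive mossy fibre input from the dentate gyrus and excite one another through recurrent collaterals, and they are among the neurons most often lost after brain trauma. Fluoro-Jade is a fluorescent dye that binds degenerating neurons, whatever the route of their death. Injured neurons can switch on stress and regeneration genes, while microglia, astrocytes and blood cells that gather around them express inflammatory genes of their own.

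Among dying against sham differences, microglial and cytokine genes held a larger share of higher calls than all genes tested, and pan-neuronal, neurotrophin and glycolysis genes a larger share of lower calls. Galanin, a neuropeptide, rose 53.3-fold before any allowance for the shift of the median gene described below, the transcription factor Atf3 rose 22.9-fold and the small heat shock protein Hspb1 rose 10.9-fold, with both dying arrays above both sham arrays for each of the 3 genes. The AMPA receptor subunit Gria2 fell 36.4-fold, the neurotrophin Bdnf 16.3-fold and the vesicle fusion protein Snap25 14.2-fold, again without overlap between the groups. Such a lack of overlap held upward for 25.7% and downward for 51.3% of all genes tested. For galanin and Atf3 it was also a condition of their choice. All these folds are before that allowance. In log2 units the 3 falls were -5.19, -4.03 and -3.83 before it and -4.43, -3.27 and -3.08 relative to the median gene. Of 22 microglial and macrophage genes tested 14 were higher and 0 lower, and of 19 glycolysis genes 0 were higher and 14 lower, where 13.4% of all genes tested were called higher and 31.2% lower. Once the arrays were centred on the genes tested, the counts were 16 and 0 for microglia and 1 and 6 for glycolysis, where 21.8% of all genes were higher and 19.8% lower.

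Levels are given as scaled signal, the processed signal of a probe divided by the median of its array, so that 1 is the level of the array's median probe. Differences are log2 of dying minus log2 of sham, averaged over the 2 arrays of each group. Over the genes tested the median difference was -0.75, so a gene with that difference lay at the middle of all genes. Differences are therefore given relative to this median gene, by subtracting the median difference from that of the gene, and the values of a single dying array are taken against the mean of the sham arrays and relative to that array's own median gene. The standard error (SE) of a difference is the same before and after this subtraction. The test compared the unsubtracted difference with 0, and a gene was called when its p, adjusted over all probes tested, was under 0.05. A p-value after centring, where given, tests the difference after the arrays were centred on the genes tested.

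The arrays differed in brightness. The median signal was 16.5 and 16.4 on the sham arrays, 19.2 and 52.6 on the dying arrays, 52.2 and 48.2 on the surviving arrays and 27.2 and 22.7 on the naïve arrays. The sham arrays detected 20910 and 20191 probes well above background, against 24057 and 27995 on the dying arrays, 29345 and 27079 on the surviving arrays and 22445 and 22390 on the naïve arrays. More probes were detected on each dying array than on either sham array. The dying replicates were also the least alike: the standard deviation (SD) of the log2 difference between replicates was 1.20 in dying neurons, 0.55 in sham, 0.69 in surviving and 0.72 in naïve neurons.

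The labelled cell type was checked against neuronal markers. Of 16 pan-neuronal genes, 16 and 16 were well above background on the sham arrays and 14 and 14 on the dying arrays. Of 13 genes of CA3 and other excitatory neurons, 13 and 13 were detected on the sham and 12 and 12 on the dying arrays. Neuronal markers were thus present in every pool, at lower summed levels in the dying pools, where the summed scaled signal of the pan-neuronal list was 3283 and 3838 against 20949 and 16824 in sham. For pools of this kind, fewer cells of a type and less RNA per cell cannot be told apart.

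Of the 12196 genes tested, 5448 (44.7%) were called between dying and sham neurons, 1637 (13.4%) higher and 3811 (31.2%) lower in dying neurons. The split changed with the scaling: 30.0% of the calls were higher with the array median, 37.4% with the median of probes with a symbol, 54.3% with the 75th percentile, 55.4% after quantile normalization, 64.6% with probes well above background on all 8 arrays and 58.1% in the series table of the authors. After centring on the genes tested, 2657 genes (21.8%) were called higher and 2420 (19.8%) lower, which made 52.3% of the calls higher. The median difference of the genes tested moved from -0.75 to between -0.55 and 0.25 under the other scalings. Calls held in the same direction under the main and 6 other scalings numbered 1436 higher and 1554 lower.

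The test used 1 estimate of the spread per probe for all 4 groups, although the dying replicates were the least alike. With arrays weighted by the spread of their group 4260 genes were called, and in a fit of the dying and sham arrays only 4314. Leaving out 1 dying array also takes the spread between the dying replicates out of the estimate. The omissions below therefore do not show which group the calls rest on. Without sham replicate 1, 1355 genes were called, and without sham replicate 2, 2459, where the fit gives the 1 array left in sham the spread of the other groups. Leaving out dying replicate 1 gave 3776 calls and leaving out dying replicate 2 gave 6244. Genes called in the same direction in the main setting and after each of the 4 omissions numbered 303 higher and 860 lower. Of the 141 genes that the naming rules chose, 43 lost their call without sham replicate 1, 25 without sham replicate 2, 11 of 139 still tested without dying replicate 1 and 1 without dying replicate 2. After a normexp correction of the raw intensities for background, limma called 0 genes, and 989 had an unadjusted p under 0.05.

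**Figure D1:**
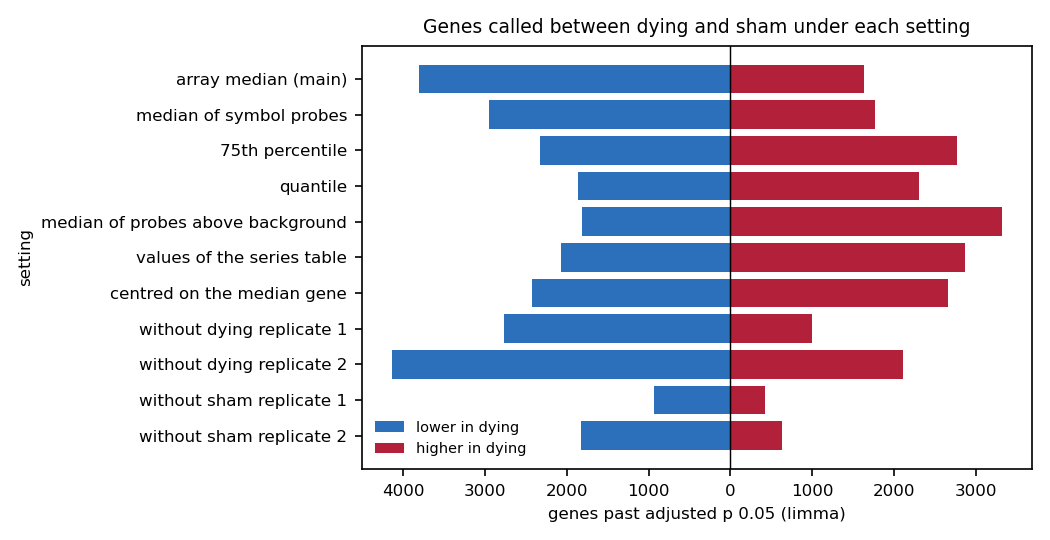
Number of genes past an adjusted p of 0.05 in limma for dying against sham neurons (horizontal axis, genes lower in dying to the left and higher to the right) under each scaling and with each array left out (vertical axis). Lower calls outnumber higher calls with the array median, 3811 against 1637, and higher calls are the more frequent after centring, 2657 against 2420.

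Without a test, both dying arrays lay above both sham arrays for 3135 genes (25.7%) and below both for 6255 (51.3%). The methods keep genes above background whose replicates lie within 50% of one another, read here as well above background on all 4 arrays with replicates at most 1.5-fold apart. Under that reading 137 of the 2746 genes kept (4.99%) were over 2-fold higher and 1492 (54.3%) over 2-fold lower in dying neurons. With 50% read as the smaller replicate being at least 50% of the larger, the 2-fold count rose from 1629 to 3026. Under the first reading, with dying replicate 1 left out the 2-fold count was 4336, and with dying replicate 2 left out it was 4124, since a lone array has no replicate to be within 1.5-fold of.

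Each dying array was then taken alone. Relative to its median gene, dying replicate 1 had 4210 genes over 2-fold above and 4041 over 2-fold below the sham mean, and dying replicate 2 had 3659 and 3075. In both arrays 3125 genes (25.6%) were over 2-fold higher and 2382 (19.5%) over 2-fold lower. Genes over 2-fold higher on replicate 1 and over 2-fold lower on replicate 2 numbered 64, and those with the reverse pattern 123. The arrays thus differed in the width of their differences, replicate 1 being the wider, and seldom in direction beyond 2-fold.

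**Figure D2:**
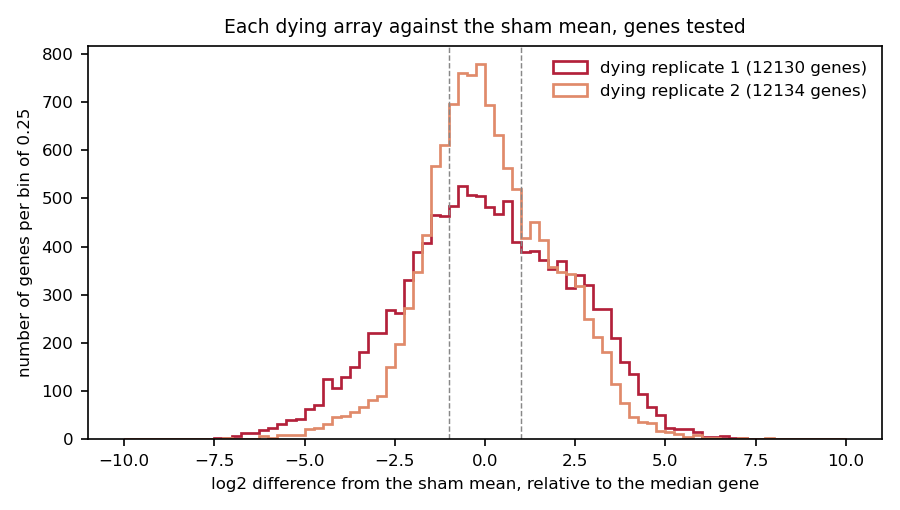
Number of genes (vertical axis, bins of 0.25) by log2 difference of each dying array from the mean of the sham arrays, relative to the median gene of that array (horizontal axis); dashed lines mark 2-fold. Dying replicate 1 is spread more widely, with 4210 genes over 2-fold higher and 4041 over 2-fold lower, than dying replicate 2, with 3659 and 3075.

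Among genes well above background on all 4 arrays, the 10 largest rises included genes of secreted proteins, the cell surface and stress. Gal, the precursor of the neuropeptide galanin, had a scaled signal of 4.53 and 3.07 on the sham arrays and 201 and 196 on the dying arrays. The dying values were nearly equal and far above both sham values. Relative to the median gene the difference was 6.49 (SE 0.43, adjusted p 0.000419), and surviving neurons, at 52.7 and 53.2, lay between the 2 groups. Kcnn4, a calcium-activated potassium channel of intermediate conductance, was at 2.19 and 3.19 in sham and 224 and 74.8 in dying neurons. Its dying values differed from each other but neither came near the sham values, and the relative difference was 6.37 (SE 0.76, adjusted p 0.00219). Sdc1, the heparan sulfate proteoglycan syndecan-1, read 1.39 and 4.67 on the sham and 92.5 and 109 on the dying arrays. All 4 values were well above background, and the dying pair was high on both arrays (6.05, SE 0.73, adjusted p 0.00233).

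Lcn2 encodes lipocalin 2, an iron-siderophore binding protein released in inflammation. Its level was 9.71 and 5.38 in sham and 471 and 167 in dying neurons, with surviving neurons at 157 and 181. Both injured groups were high and overlapped each other, while sham and dying did not overlap (relative difference 6.03, SE 0.63, adjusted p 0.00152). S100a4, a calcium-binding protein of motile cells, was 18.9 and 13.4 in sham and 923 and 402 in dying pools. The lower dying value was above the higher sham value by a wide margin (6.01, SE 0.58, adjusted p 0.0012), and the gene's 3 tested probes gave unsubtracted differences from 2.81 to 5.26. Timp1, an inhibitor of matrix metalloproteinases, had 122 and 28.1 on the sham arrays and 1879 and 1319 on the dying arrays. Sham replicate 1 was above sham replicate 2, and both stayed under the dying values (5.5, SE 0.82, adjusted p 0.00438). Adamts7, a metalloproteinase of the extracellular matrix, had 2.69 and 2.13 in sham and 91.0 and 48.6 in dying neurons (5.55, adjusted p 0.00105), again with no overlap.

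Tspo, the translocator protein of the outer mitochondrial membrane, named Bzrp on the array, was 1.59 and 2.87 in sham and 36.8 and 75.0 in dying neurons. The higher dying value was that of replicate 2, unlike most of these genes, and the groups did not overlap (5.38, SE 0.93, adjusted p 0.0071). Atf3, a transcription factor induced by cell stress and axotomy, was 5.3 and 1.3 in sham and 66.2 and 54.5 in dying neurons. Sham replicate 1 was the higher of its pair, and both dying arrays were above it (5.27, SE 0.65, adjusted p 0.00262). The provisional gene LOC500904 completed the 10, with 2.78 and 5.0 in sham and 127 and 116 in dying neurons (5.77, adjusted p 0.00122), both dying arrays being high.

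**Figure D3:**
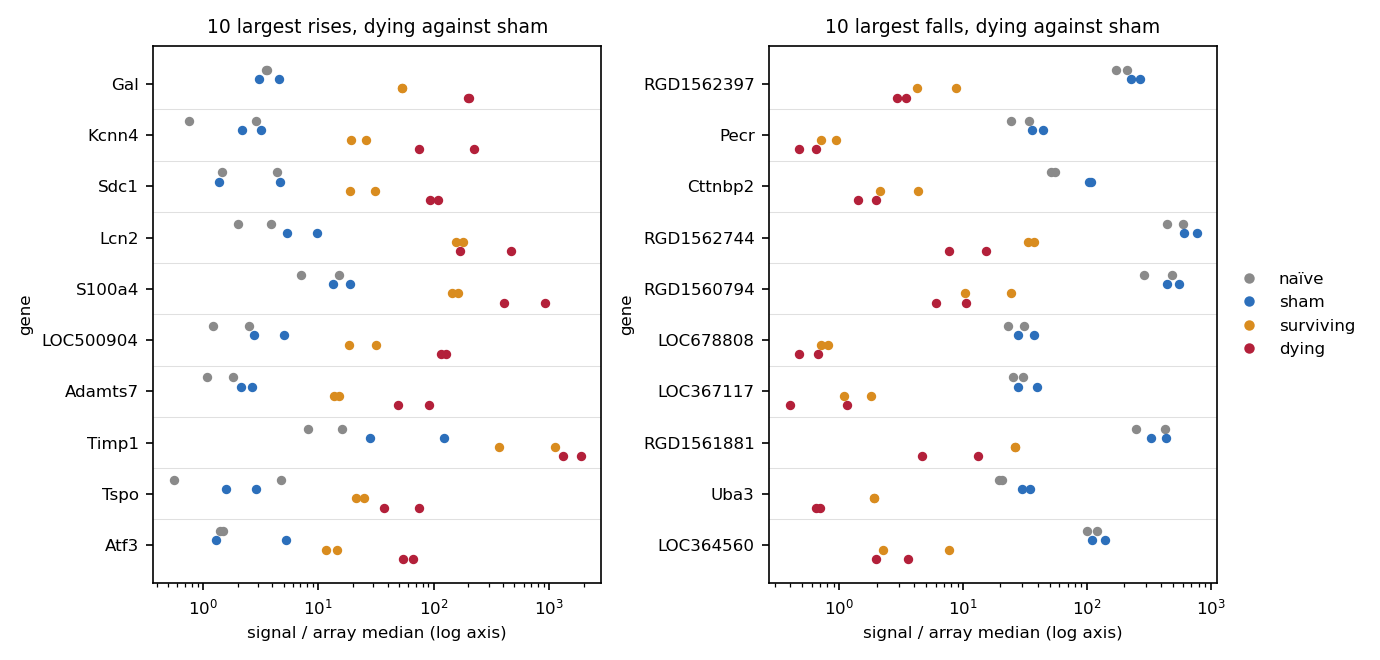
Scaled signal on each array (horizontal log axis, 1 is the array median) of the 10 genes with the largest rise and the 10 with the largest fall in dying against sham neurons (vertical axis); each point is 1 array, coloured by group. Gal stands at 201 and 196 on the dying arrays against 4.53 and 3.07 on the sham arrays, and Uba3 at 0.692 and 0.65 against 34.9 and 29.7.

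For 2040 of the genes tested no sham array was well above background, so only a bound on the rise can be given. The bound is the mean over both dying arrays against the mean, over the sham arrays, of the higher of the lowest signal among probes well above background and the probe's own signal. The adjusted p printed with a bound belongs to the difference of the scaled values, those at background included, and is not a test of the bound. These genes entered the test only because both arrays of the other group detected them. Hk3, a hexokinase found in blood cells of the myeloid line, was 0.171 and 0.346 on the sham arrays, not well above background, and 50.5 and 33.0 on the dying arrays. It was at least 47.7-fold higher in dying neurons (adjusted p 0.000397), the largest bound among rises. Slamf9, a receptor of the signalling lymphocyte activation family, was at background in sham with 0.18 and 0.206 and at 37.4 and 15.5 in dying neurons, at least 28.2-fold higher (adjusted p 0.000897). Myo1g, a class I myosin of blood cells, was 0.944 and 0.238 in sham and 34.5 and 9.37 in dying neurons, at least 19.5-fold higher (adjusted p 0.00308). C5ar1, the receptor of the complement fragment C5a, was 0.586 and 0.628 in sham and 19.5 and 11.6 in dying neurons, at least 17.6-fold higher (adjusted p 0.00118). C18h5orf46, a gene named only by its reading frame, was 0.514 and 0.439 in sham and 27.3 and 5.91 in dying neurons, at least 14.8-fold higher (adjusted p 0.00262), with dying replicate 2 far under replicate 1. All 5 genes were detected on both surviving arrays too.

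The largest falls held many genes that carry provisional names. RGD1562397 had 268 and 228 on the sham arrays, 3.43 and 2.91 on the dying arrays and 4.23 and 8.74 on the surviving arrays. The uninjured pools were high and all injured pools low, and relative to the median gene it fell by 5.54 in dying neurons (SE 0.49, adjusted p 0.000428). Pecr, a peroxisomal enoyl-CoA reductase of fatty acid elongation, was 44.1 and 35.7 in sham, 0.472 and 0.648 in dying and 0.709 and 0.936 in surviving neurons. It fell by 5.41 (SE 0.45, adjusted p 0.000419), and the dying and surviving values were close. Cttnbp2, a cortactin-binding protein of dendritic spines, was 107 and 104 in sham and 1.97 and 1.42 in dying neurons and fell by 5.23 (SE 0.49, adjusted p 0.000487). Its other tested probe had a difference of 0.43 before the subtraction, so the 2 probes of this gene disagree in sign. Uba3, the catalytic subunit of the enzyme that activates the ubiquitin-like protein NEDD8, was 34.9 and 29.7 in sham, 0.692 and 0.65 in dying and 1.9 and 1.9 in surviving neurons. The replicates were close within each group, dying lowest, and it fell by 4.83 (SE 0.41, adjusted p 0.000419).

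The remaining 6 of these 10 genes, all provisional, were low in both dying and surviving neurons. RGD1562744 was 771 and 605 in sham and 7.67 and 15.4 in dying neurons and fell by 5.22. RGD1560794 was 557 and 440.4 in sham against 5.99 and 10.5 in dying neurons and fell by 5.21. In both genes dying replicate 1 was the lower of its pair. LOC678808 was 37.6 and 27.7 in sham and 0.676 and 0.47 in dying neurons and fell by 5.09. LOC367117 was 39.7 and 27.9 in sham against 1.14 and 0.395 in dying neurons and fell by 4.88. Here dying replicate 2 was the lower array. RGD1561881, at 433 and 329 in sham and 4.65 and 13.2 in dying neurons, fell by 4.84, and LOC364560, at 141 and 109 in sham against 3.57 and 1.98 in dying neurons, fell by 4.79. None of the 6 overlapped between the groups, and their adjusted p ran from 0.000428 to 0.0014.

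No dying array was well above background for 213 of the genes tested, and bounds on their falls are formed in the same way, as they are below for named genes with 1 dying array at background. A bound holds for the mean of the log2 values of both dying arrays. With 1 dying array detected, that array alone can lie closer to sham than the bound. The largest bound among falls was that of LOC685718, at 70.9 and 62.9 on the sham arrays and 0.157 and 0.192 on the dying arrays, at least 219-fold lower in dying neurons (adjusted p 0.000299). Rchy1, a ubiquitin ligase that acts on p53, was 30.1 and 25.4 in sham and 0.122 and 0.219 in dying neurons, at least 90.5-fold lower (adjusted p 0.000323). Both injured groups were at background for Rchy1, with surviving neurons at 0.16 and 0.187. RGD1561150 was 31.2 and 22.8 in sham and 0.168 and 0.124 in dying neurons, at least 87.3-fold lower. LOC310891, with 22.7 and 16.2 in sham against 0.142 and 0.177 in dying neurons, was at least 62.9-fold lower, and RGD1561993, with 17.4 and 16.4 in sham against 0.397 and 0.212 in dying neurons, at least 54.9-fold lower. On the surviving arrays LOC310891 and RGD1561993 were detected on 1 of 2 arrays and the other 3 genes on none.

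Gene lists are described by the number of members tested, the number called and the median of their relative differences, where the median of all genes tested is 0 and 13.4% of all genes were called higher and 31.2% lower. The 32 lists held 756 genes on the array, 30 of them in more than 1 list. Counts higher and lower after centring, where 21.8% of all genes were higher and 19.8% lower, follow each count. Where genes at background were set to their bound, the unsubtracted median moved from 2.35 to 2.28 for microglia, from 1.64 to 1.58 for complement and antigen presentation, from 0.43 to 0.18 for interneurons, from 0.21 to -0.79 for dentate granule genes and from -0.14 to -0.19 for oxidative stress. Other lists whose median moved are given with both values below. A gene at background in sham was tested only when both dying arrays detected it, so the counts depend in part on the filter. Among the 8238 genes well above background on all 4 arrays 4.09% were higher and 36.1% lower. The counts among these genes, called detected throughout, are given last for each list. Of 34 chosen genes with several tested probes, the probes differed in sign for 5 and by more than 2 log2 units for 17. Values are those of the brightest probe, and where probes of a gene were that far apart their range before the subtraction is given.

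Of 16 pan-neuronal genes tested, 0 were higher and 9 lower (0 and 8 after centring; 0 and 6 of 12 detected throughout), and the median was -1.61, at -1.64 on dying replicate 1 and -0.63 on replicate 2. Uchl1, an abundant ubiquitin hydrolase of neurons, was 2237 and 1557 in sham and 131 and 259 in dying neurons. Both dying arrays were far under both sham arrays, and the gene fell by 2.59 (SE 0.51, adjusted p 0.00307). Snap25, a fusion protein of synaptic vesicles, was 2040.3 and 1441 in sham and 73.3 and 199 in dying neurons and fell by 3.08 (SE 0.69, adjusted p 0.00502). Dying replicate 1 was the lower of the pair. Nefm, the medium neurofilament chain, was 614 and 495 in sham and 37.0 on dying replicate 1, while the spot on replicate 2 was non-uniform and left out. It fell by 3.15 (adjusted p 0.00315), a value that rests on 1 dying array.

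Genes of CA3 and other excitatory neurons followed, with 0 of 13 higher and 8 lower (0 and 3 after centring; 0 and 7 of 11 detected throughout) and a median of -1.41, -2.34 on replicate 1 and -0.47 on replicate 2. Nptx1, a secreted pentraxin that gathers glutamate receptors, was 297 and 227 in sham and 2.6 and 13.5 in dying neurons. Dying replicate 1 was the lower of a widely spread pair, and both dying values were far under sham (fell by 4.7, SE 0.79, adjusted p 0.00262). Neurod1, a transcription factor of neuronal differentiation, was 55.1 and 49.8 in sham and 6.23 and 12.7 in dying neurons and fell by 1.81 (adjusted p 0.00739). Neurod6, a related factor of pyramidal neurons, was 354 and 272 in sham and 70.5 and 102 in dying neurons and fell by 1.12 (adjusted p 0.0131). Neither factor's groups overlapped, as held in this direction for 51.3% of all genes tested. Surviving neurons, with 228 and 214 for Neurod6, stood between the groups.

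Only 2 of 4 dentate granule genes on the array were tested. Tdo2, a tryptophan dioxygenase, was at background in sham with 0.175 and 0.20 and at 1.06 and 0.531 in dying neurons, above background but too dim for a bound over 1 (adjusted p 0.0133). Calb1, the calcium buffer calbindin, was 19.2 and 37.9 in sham and 22.2 and 3.68 in dying neurons, where the sham values lay around dying replicate 1 (adjusted p 0.184). Its other probe, at background in dying neurons, differed by -3.83 (adjusted p 0.00315). The median of the 2 genes, 0.97, ran from -0.53 to 1.65 over the settings tried and so changed sign.

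A list of genes that the study had named as higher in surviving neurons was chosen on these same arrays and is not independent evidence. It holds only the 15 such genes of the study's table of selected genes, and the study's supplement names more. Of 13 tested, 0 were higher and 11 lower in dying than in sham neurons (0 and 8 after centring; 0 and 9 of 11 detected throughout), with a median of -2.32; before the subtraction the median was -3.08, and -2.84 with genes at background set to their bound. Cfl1, the actin-severing protein cofilin, was 91.2 and 59.6 in sham and 0.405 and 3.67 in dying neurons, with 1 of the 2 dying arrays well above background. On the mean of both dying arrays it was 60.5-fold lower (adjusted p 0.00301). Relative to each array's median gene it fell by 6.86 on dying replicate 1 and by 3.6 on replicate 2. Dying replicate 1 was the lower. Skil, a repressor of TGF-beta signalling, was 1.79 and 2.66 in sham and 0.19 and 0.0655 in dying neurons, neither dying array above background, at least 7.15-fold lower (adjusted p 0.00296); its second probe differed by 1.26. Cd59b, a membrane inhibitor of complement, was 143 and 138 in sham and 4.09 and 40.9 in dying neurons. It fell by 2.69 (adjusted p 0.0204, and 0.0574 after centring), the dying replicates lying far apart and both under sham.

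Among kinases of the list, Mapk9 (the stress kinase JNK2) was 118 and 95.0 in sham and 45.0 and 36.0 in dying neurons, a relative difference of -0.64 that missed the threshold (adjusted p 0.0527), while its 3 tested probes ran from -5.24 to -1.4 and the lowest, at background in dying neurons, passed the test (adjusted p 0.0014). Camk2a, the alpha subunit of CaM kinase II, was 29.4 and 23.3 in sham and 3.38 and 14.6 in dying neurons (relative difference -1.14, adjusted p 0.0679). Both dying arrays were under both sham arrays for the probes used, and neither of these probes passed the test. The other probe of Camk2a differed by -0.11. Ephb1, a receptor of ephrins, was 27.7 and 17.7 in sham against 4.04 and 3.25 in dying neurons and fell by 1.86 (adjusted p 0.00416), its other probe differing by -5.75. It was low on each dying array. Pdcd6ip, a protein of endosomal sorting, was 57.0 and 47.4 in sham and 6.45 and 15.3 in dying neurons and fell by 1.63 (adjusted p 0.0111). Rybp, a Polycomb partner, was 404 and 363 in sham and 172 and 65.4 in dying neurons (adjusted p 0.0262, and 0.082 after centring), and Yy1, a DNA-binding partner of Rybp, was 105 and 94.1 in sham against 41.2 and 35.8 in dying neurons (adjusted p 0.029, and 0.15 after centring). On these probes the dying values lay under sham, and the calls were lost once arrays were centred. The other probe of Rybp differed by -4.09, and that of Yy1 by 0.53, opposite in sign to the probe used.

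The study's other list, of genes named as higher in dying than in surviving neurons and likewise chosen on these arrays, gave 2 higher and 2 lower of 8 tested (3 and 1 after centring; 1 and 2 of 6 detected throughout), with a median of 1.21. This list too holds only the 10 such genes of the table of selected genes, and the supplement names more genes as higher in dying neurons. The study's supplement lists Cdc42, Il1b, Ptpn11, Ret and Inpp5d under expressed sequence tags whose probes carry no symbol on the array. Values given here for these genes come from other probes, so they do not check those of the study. Tlr2, a receptor of microbial lipoproteins, was 6.38 and 8.64 in sham and 47.7 and 25.5 in dying neurons and rose by 2.99 relative to the median gene (SE 0.48, adjusted p 0.00869). Both dying arrays were above all others, since surviving neurons had 4.92 and 4.49 and naïve neurons 11.1 and 11.1. Il1b, the cytokine interleukin 1 beta, was at background in sham with 0.45 and 0.216 and at 5.86 and 8.79 in dying neurons, at least 8.39-fold higher (adjusted p 0.00228). Cdc42, a small GTPase of the actin skeleton, was 769 and 551 in sham and 149 and 186 in dying neurons and fell by 1.22 (adjusted p 0.0134). It was lower on each dying array than on each sham array. Ptpn11, a tyrosine phosphatase of growth factor signalling, was 7.41 and 6.17 in sham and 11.1 and 51.5 in dying neurons (relative difference 2.58, adjusted p 0.0849, and 0.0328 after centring). Ret, a receptor of glial cell line-derived factors, was 9.0 and 4.48 in sham against 11.9 and 8.5 in dying neurons (adjusted p 0.367). Ncam1, a neural adhesion molecule, was 1.32 and 1.99 in sham against 0.278 and 1.34 in dying neurons, with 1 dying array above background (adjusted p 0.161). Inpp5d, an inositol phosphatase of blood cells, was 9.32 and 5.39 in sham against 11.2 and 6.38 in dying neurons (adjusted p 0.766), and its 3 tested probes ran from 0.25 to 3.35, the highest, at background in sham, passing the test (adjusted p 0.0181). None of the 4 passed the test on the probe used, and there the groups overlapped for Ret, Ncam1 and Inpp5d.

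Of 24 genes of glutamate receptors and their scaffolds, 1 was higher and 9 lower (1 and 8 after centring; 0 and 6 of 15 detected throughout), with a median of -1.11. Gria2, the AMPA receptor subunit that limits calcium entry, was 307 and 214 in sham and 5.55 and 8.94 in dying neurons, and 27.5 and 19.6 in surviving neurons. Dying values were lowest, surviving values between, and the fall was by 4.43 relative to the median gene (SE 0.47, adjusted p 0.000681). Shank2, a scaffold of the postsynaptic density, was 21.6 and 15.5 in sham and 2.72 and 1.8 in dying neurons and fell by 2.29 (adjusted p 0.00296). Grik3, a kainate receptor subunit, was the exception: at background in sham with 0.165 and 0.184, it was 1.74 and 0.924 in dying neurons, at least 1.48-fold higher (adjusted p 0.00363). Of 7 GABA-A receptor genes 0 were higher and 4 lower (0 and 2 after centring; 0 and 2 of 4 detected throughout), with a median of -1.27, -2.48 on dying replicate 1 and -0.32 on replicate 2. The theta subunit Gabrq was 137 and 104 in sham and 18.9 and 20.4 in dying neurons and fell by 1.85 (SE 0.42, adjusted p 0.00346). The replicates of each group were close. Gabra4, the alpha 4 subunit, was 1.9 and 1.65 in sham and 0.155 and 0.0501 in dying neurons, where it was at background, at least 5.8-fold lower (adjusted p 0.00575). Gabrb1, the beta 1 subunit, was 395 and 269 in sham against 54.6 and 122 in dying neurons (adjusted p 0.0194, and 0.0608 after centring), a call lost on centring.

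Of 26 genes of synaptic vesicles and the fusion machinery 3 were higher and 10 lower (4 and 6 after centring; 1 and 10 of 21 detected throughout), with a median of -0.38. Dying replicate 1 had a median of -1.07 and replicate 2 of -0.21. Vamp2, the vesicle SNARE synaptobrevin 2, was 484 and 447 in sham, 80.1 and 69.7 in dying and 80.3 and 80.0 in surviving neurons. Dying and surviving neurons did not stand apart, and both were under sham (fell by 1.88, SE 0.42, adjusted p 0.00342). Rab3a, a GTPase that readies vesicles for release, was 157 and 143 in sham, 1.46 and 11.3 in dying and 61.2 and 41.4 in surviving neurons and fell by 4.45 (SE 0.87, adjusted p 0.00387). Here the dying arrays were also far under the surviving arrays. Synpr, the vesicle membrane protein synaptoporin, was 14.5 and 9.98 in sham and 1.24 and 0.306 in dying neurons and fell by 3.53 (adjusted p 0.00392).

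Voltage-gated channels gave 1 higher and 16 lower of 41 tested (3 and 11 after centring; 1 and 15 of 32 detected throughout), with a median of -0.51. Scn2a, a sodium channel of axons, was 516 and 419 in sham and 54.9 and 61.7 in dying neurons and fell by 2.25 (SE 0.42, adjusted p 0.00238), its 3 probes running from -3.22 to -1.1. Scn1a, another sodium channel, was 27.4 and 22.7 in sham against 2.65 and 3.74 in dying neurons and fell by 2.23 (adjusted p 0.00296). Kcnma1, a potassium channel of large conductance opened by calcium and voltage, was 19.3 and 19.2 in sham against 2.62 and 2.34 in dying neurons and fell by 2.21 (adjusted p 0.00231). For each of the 3 channels the dying replicates were close to each other and far under sham. Of 15 ion pumps and exchangers 1 was higher and 7 lower (1 and 5 after centring; 0 and 6 of 11 detected throughout), with a median of -0.88. Atp1b1, a beta subunit of the sodium-potassium pump, was 8394 and 7974 in sham and 1498 and 2321 in dying neurons and fell by 1.38 (SE 0.44, adjusted p 0.00772). It was well above background on every array. Atp1b3, another beta subunit, was 255 and 232 in sham against 62.9 and 68.0 in dying neurons and fell by 1.14 (adjusted p 0.0127), and Atp2a2, the calcium pump of the endoplasmic reticulum, was 1148 and 949 in sham against 336 and 339 in dying neurons and fell by 0.88 (adjusted p 0.0161).

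Genes of neurotrophin and activity signalling were among the lists with the larger share of lower calls, with 0 of 31 higher and 18 lower (0 and 11 after centring; 0 and 17 of 28 detected throughout) and a median of -1.09. That median was -1.86 on dying replicate 1 and -0.83 on replicate 2. Bdnf, a neurotrophin released with activity, was 8.1 and 7.56 in sham, 0.473 and 0.488 in dying and 1.64 and 1.33 in surviving neurons. The order sham, surviving, dying held for every array, and Bdnf fell by 3.27 in dying against sham (SE 0.42, adjusted p 0.000985). Calm2, which encodes a calcium sensor, was 1608 and 1244 in sham against 155 and 223 in dying neurons and fell by 2.18 (adjusted p 0.00326).

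Genes of energy metabolism that were called were lower with the main scaling. Lower calls were frequent among all genes too, at 31.2%, and at 36.1% of those detected throughout. The respiratory chain lay near these shares and glycolysis above them. Of 19 glycolysis genes 0 were higher and 14 lower (1 and 6 after centring; 0 and 12 of 16 detected throughout), with a median of -1.21, -1.81 on dying replicate 1 and -0.73 on replicate 2. Pfkp, the platelet type of phosphofructokinase, was 724 and 586 in sham and 65.4 and 58.6 in dying neurons and fell by 2.64 (SE 0.45, adjusted p 0.00205). Pfkl, the liver type, was 21.7 and 14.4 in sham against 1.41 and 2.28 in dying neurons and fell by 2.55 (adjusted p 0.00265). Slc2a3, the glucose transporter of neurons, was 6.29 and 5.93 in sham and 0.137 and 0.807 in dying neurons, with 1 of the 2 dying arrays above background. On the mean of both dying arrays it was at least 10.9-fold lower (adjusted p 0.00524). Relative to each array's median gene it fell by 4.83 on dying replicate 1 and by 2.19 on replicate 2. Surviving neurons, at 5.11 and 5.23, were near sham for this transporter. Of 54 genes of the respiratory chain 0 were higher and 20 lower (2 and 15 after centring; 0 and 19 of 51 detected throughout), with a median of -0.39, so that 34 were not called. Atp5mc3, a subunit of the ring of ATP synthase, was 367 and 247 in sham and 6.25 and 11.7 in dying neurons and fell by 4.38 (SE 0.50, adjusted p 0.000869). Ndufs4, a subunit of complex I, was 21.7 and 14.1 in sham against 1.32 and 1.86 in dying neurons and fell by 2.73 (adjusted p 0.00228). Cycs, cytochrome c, which carries electrons, was 1775 and 1231 in sham against 137 and 187 in dying neurons and fell by 2.45 (adjusted p 0.00228). None of the 3 overlapped between sham and dying arrays, as held in this direction for 51.3% of all genes tested.

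Of 74 cytosolic ribosomal protein genes 1 was higher and 5 lower, 15 and 4 after centring, and 1 and 4 of 67 detected throughout; the median was 0.73, and before the subtraction it ran from -0.03 to 0.98 over the scalings and changed sign. The relative median was 1.12 on dying replicate 1 and 0.24 on replicate 2. Ribosomal genes with the smallest p went against the list's median. Rps26 was 24.2 and 21.3 in sham and 0.155 and 0.303 in dying neurons, with 1 dying array above background, at least 65.9-fold lower (adjusted p 0.000419). Rpl34 was 579 and 511 in sham and 59.9 and 55.0 in dying neurons and fell by 2.49 (adjusted p 0.00218), and Rps7 was 160.5 and 128 in sham against 14.5 and 10.5 in dying neurons and fell by 2.79 (adjusted p 0.00307). Surviving neurons were as low, with 0.243 and 0.352 for Rps26 and 51.6 and 71.5 for Rpl34. Of 34 genes of the proteasome and ubiquitin 0 were higher and 15 lower (0 and 10 after centring; 0 and 15 of 33 detected throughout), with a median of -0.58. On dying replicate 1 the proteasome median was -0.94 and on replicate 2 -0.19. Psmb7, a catalytic proteasome subunit, was 567 and 348 in sham, 17.5 and 45.7 in dying and 179.9 and 147 in surviving neurons. It fell by 3.22 (SE 0.58, adjusted p 0.00265), the dying arrays being lowest. Psma2, a structural subunit, was 211 and 168 in sham and 16.5 and 30.8 in dying neurons and fell by 2.31 (adjusted p 0.00375).

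Lysosomal genes gave 3 higher and 4 lower of 21 tested (4 and 2 after centring; 2 and 3 of 18 detected throughout), with a median of 0.49 that before the subtraction ran from -0.26 to 0.77 over the scalings and changed sign. Cd68, a lysosomal protein of macrophages, was 5.74 and 5.74 in sham and 109 and 44.8 in dying neurons and rose by 4.36 relative to the median gene (SE 0.55, adjusted p 0.0031). Ctsz, the protease cathepsin Z, was at background in sham with 0.77 and 0.985 and at 4.62 and 9.27 in dying neurons, at least 7.33-fold higher (adjusted p 0.0064). Lamp2, a membrane protein of lysosomes in most cells, was 5.11 and 4.59 in sham and 0.169 and 0.857 in dying neurons, with 1 dying array above background. On the mean of both dying arrays it was at least 8.36-fold lower (adjusted p 0.00651). Relative to each array's median gene it fell by 4.19 on dying replicate 1 and by 1.77 on replicate 2. Members of this list thus went in both directions.

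The response to axon injury was mixed in the same way. Of 22 genes 4 were higher and 9 lower (6 and 7 after centring; 3 and 6 of 17 detected throughout), with a median of -0.87. Beside Gal and Atf3, Ecel1, a membrane peptidase of injured neurons, rose: at background in sham with 0.178 and 0.392, it was 3.09 and 3.15 in dying neurons, at least 3.65-fold higher (adjusted p 0.00243). The dying replicates agreed closely. Efnb1, the membrane ligand ephrin B1, was 4.61 and 3.36 in sham and 0.209 and 0.228 in dying neurons, where it was at background, at least 12.9-fold lower (adjusted p 0.00228).

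Immediate early genes gave 4 higher and 4 lower of 23 tested (8 and 3 after centring; 2 and 4 of 19 detected throughout), with a median of 0.71, which before the subtraction ran from -0.05 to 0.97 over the scalings and changed sign. Egr1, a zinc finger factor induced by activity, was 275 and 293 in sham and 48.5 and 55.0 in dying neurons and fell by 1.71 (SE 0.48, adjusted p 0.00621). Klf10, a factor induced by TGF-beta, was 117 and 102 in sham against 13.1 and 17.5 in dying neurons and fell by 2.1 (adjusted p 0.00285). Their replicates agreed well within each group. Others of the family moved up from background. Fosl2, a partner of Jun proteins, was 0.554 and 0.423 in sham and 3.09 and 2.14 in dying neurons, at least 3.01-fold higher (adjusted p 0.011), and Egr3 was 0.234 and 0.188 in sham against 1.54 and 0.891 in dying neurons, at least 1.37-fold higher (adjusted p 0.0129).

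Heat shock and chaperonin genes were 2 higher and 10 lower of 24 tested (4 and 5 after centring; 1 and 9 of 22 detected throughout), with a median of -0.57. Taken by array, the median was -1.10 on dying replicate 1 and -0.23 on replicate 2. Hspb1, the small heat shock protein Hsp27, was 26.9 and 34.5 in sham, 255 and 434 in dying and 221 and 230.5 in surviving neurons. All injured pools were high, and Hspb1 rose by 4.2 relative to the median gene (SE 0.52, adjusted p 0.00299). Hspa8, the constitutive Hsc70, was 3327 and 2771 in sham and 347 and 549 in dying neurons and fell by 2.04 (SE 0.45, adjusted p 0.00339). Stip1, a co-chaperone that links Hsp70 to Hsp90, was 41.5 and 45.6 in sham against 3.34 and 9.5 in dying neurons and fell by 2.2 (adjusted p 0.00724). The chaperonin subunit Tcp1, with 453 and 283 in sham and 52.8 and 82.5 in dying neurons, fell by 1.69 (adjusted p 0.00716). Another, Cct2, was 735 and 568 in sham against 105 and 217 in dying neurons and fell by 1.34 (adjusted p 0.0137), its other probe differing by -5.42.

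Genes of the unfolded protein and integrated stress response were 1 higher and 9 lower of 21 tested (2 and 5 after centring; 1 and 9 of 17 detected throughout), with a median of -0.59. By array the median was -0.80 on dying replicate 1 and -0.21 on replicate 2. Ern1, the stress sensor IRE1, was 22.1 and 16.2 in sham and 2.0 and 1.87 in dying neurons and fell by 2.53 (SE 0.52, adjusted p 0.00332). Hspa5, the chaperone BiP of the endoplasmic reticulum, was 1431 and 1197 in sham against 347 and 289 in dying neurons and fell by 1.29 (adjusted p 0.00778). Both genes were low on each dying array. Dnajb9, its co-chaperone, was 19.9 and 14.4 in sham against 1.66 and 2.0 in dying neurons and fell by 2.46 (adjusted p 0.00213), while its other probe differed by 0.15. Oxidative and metal stress genes were 4 higher and 3 lower of 20 tested (7 and 1 after centring; 1 and 1 of 13 detected throughout); their median of 0.61 ran from -0.04 to 0.87 over the settings and changed sign. Srxn1, which repairs oxidised peroxiredoxins, was at background in sham with 0.872 and 0.681 and at 3.74 and 4.43 in dying neurons, at least 4.59-fold higher (adjusted p 0.00614). Gpx3, a secreted glutathione peroxidase, was 0.165 and 0.288 in sham against 2.45 and 0.827 in dying neurons, at least 1.66-fold higher (adjusted p 0.0138). Fth1, the heavy chain of ferritin, was 1928 and 1396 in sham and 542 and 437 in dying neurons and fell by 1.0 (adjusted p 0.0151), while its other probe differed by -4.37.

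Of 12 targets of p53 1 was higher and 3 lower (3 and 3 after centring; 0 and 2 of 9 detected throughout), and the median of 0.46 ran from -0.05 to 0.87 over the settings and changed sign. Eda2r, a member of the TNF receptor family, was at background in sham with 0.814 and 0.807 and at 5.71 and 3.31 in dying neurons, at least 5.07-fold higher (adjusted p 0.00584). Mdm2, the ubiquitin ligase of p53, was 66.6 and 52.9 in sham and 7.55 and 14.6 in dying neurons and fell by 1.75 (adjusted p 0.00723), and Zmat3, a zinc finger RNA-binding protein, was 494 and 396 in sham against 142 and 106 in dying neurons and fell by 1.09 (adjusted p 0.0143). The apoptosis machinery gave 1 higher and 7 lower of 21 tested (1 and 5 after centring; 1 and 7 of 18 detected throughout), with a median of -0.26 that before the subtraction reached 0.0012 under 1 scaling and so changed sign. Bnip3, a mitochondrial death and mitophagy protein, was 572 and 380.0 in sham and 13.6 and 52.2 in dying neurons and fell by 3.38 (SE 0.65, adjusted p 0.00336). Bcl2l2, the survival protein Bcl-w, was 171 and 113 in sham against 33.8 and 29.3 in dying neurons and fell by 1.39 (adjusted p 0.00723), though its probes differed, from -2.14 to 1.04.

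Cell cycle and replication genes were 4 higher and 1 lower of 22 tested (7 and 0 after centring; 1 and 1 of 13 detected throughout), with a median of 1.35; before the subtraction it was 0.60, and 0.00 with genes at background set to their bound. Cdk1, the kinase that starts mitosis, was at background in sham with 0.22 and 0.26 and at 8.6 and 8.13 in dying neurons, at least 9.77-fold higher (adjusted p 0.000483). Both dying arrays were near each other, and surviving neurons had 4.98 and 6.55. Rrm2, a subunit of ribonucleotide reductase, was 0.561 and 0.476 in sham and 4.45 and 2.81 in dying neurons, at least 4.13-fold higher (adjusted p 0.00467). Ccnd1, the cyclin that carries cells through G1, was 6.51 and 7.28 in sham against 32.8 and 51.3 in dying neurons and rose by 3.33 (SE 0.46, adjusted p 0.00474), well detected on all 4 arrays, and its other probe differed by 5.02.

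Inflammatory genes that were called were higher, with few exceptions. Of 28 cytokine and innate immune genes 12 were higher and 1 lower (15 and 0 after centring; 8 and 0 of 19 detected throughout), with a median of 2.67, 3.03 on dying replicate 1 and 2.28 on replicate 2; before the subtraction it was 1.91, and 1.44 with genes at background set to their bound. Lcn2, Timp1 and Il1b, given above, belong to it. Ccl4, a chemokine of monocytes, was at background in sham with 0.161 and 0.231 and at 1.22 and 2.92 in dying neurons, at least 2.2-fold higher (adjusted p 0.00346). Cxcl1, a chemokine of neutrophils, was 1.9 and 1.97 in sham and 30.0 and 18.2 in dying neurons and rose by 4.35 (SE 0.64, adjusted p 0.00479). Both dying arrays were above all surviving and naïve arrays for Cxcl1. Of 17 genes of complement and antigen presentation 6 were higher and 1 lower (13 and 0 after centring; 5 and 1 of 15 detected throughout), with a median of 2.39. Tap1, a peptide transporter of antigen presentation, was at background in sham with 0.322 and 0.332 and at 1.7 and 2.91 in dying neurons, at least 2.6-fold higher (adjusted p 0.00356). Psmb8, a subunit of the immunoproteasome, was 3.29 and 1.57 in sham and 13.0 and 16.1 in dying neurons and rose by 3.43 (SE 0.49, adjusted p 0.00525). Psmb9, another such subunit, was 15.7 and 25.1 in sham against 126 and 78.1 in dying neurons and rose by 3.08 (adjusted p 0.0115).

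Sequences before the start of inflammatory genes are shown because 12 of 28 cytokine and 6 of 17 complement and antigen genes were higher, against 13.4% of all genes. Those of 2 heat shock genes are shown because Hspb1 rose and Hspa8 fell. The table of RefSeq promoters (build GRCr8, 250 bases before to 50 after the start) held 90 of the 141 genes chosen by the naming rules, 86 of them with 1 promoter. After the values had been seen, 12 motifs were searched on both strands, and 3 are shown. The NF-κB motif was GGG, A or G, any 2 bases, 2 bases that are each C or T, and CC. Also shown are an interferon response motif (GAAA, any 2 bases, GAAA) and the heat shock motif GAANNTTC. The NF-κB motif was found in 7.51% of the 33469 promoters of the table, in 13 of 30 promoters of the cytokine list and in 12 of 86 of the chosen genes. The interferon response motif was found in 3.92% of all promoters and in 5 of 15 of the complement and antigen list, and in 3 of 86 of the chosen genes. GAANNTTC was found in 8.59% of all promoters and in 10 of 21 of the heat shock list, and in 7 of 86 of the chosen genes. The motifs were also counted on the other lists. NF-κB was in 4 of 15 complement and antigen and 4 of 21 heat shock promoters. The interferon response motif was in 4 of 30 cytokine and 0 of 21 heat shock promoters. GAANNTTC was in 2 of 30 cytokine and 3 of 15 complement and antigen promoters. The other motifs and their share of all promoters were TGANTCA (7.33%), TGACGTCA (1.83%), the CArG box (1.64%), a longer heat shock motif that extends GAANNTTC by any 2 bases and GAA (0.798%), an endoplasmic reticulum stress motif of CCAAT, any 9 bases and CCACG (0.0657%), GAGGAA (27.6%), GAGGAAGT, which holds GAGGAA (2.42%), TGATGNAA (3.98%) and TTCAGCACC (0.356%). A match describes the letters and does not show that a factor binds. Capitals below mark the NF-κB motif on the other strand for Lcn2 (chr3:36081731-36082030, minus strand) and, overlapping on both strands, for Cxcl1 (chr14:17479272-17479571, minus). They mark the interferon response motif on the other strand for Tap1 (chr20:4668494-4668793, minus) and Psmb8 (chr20:4656982-4657281, minus). GAANNTTC is marked for Hspb1 (chr12:26432252-26432551, minus) and Hspa8 (chr8:50080264-50080563, plus).
Lcn2: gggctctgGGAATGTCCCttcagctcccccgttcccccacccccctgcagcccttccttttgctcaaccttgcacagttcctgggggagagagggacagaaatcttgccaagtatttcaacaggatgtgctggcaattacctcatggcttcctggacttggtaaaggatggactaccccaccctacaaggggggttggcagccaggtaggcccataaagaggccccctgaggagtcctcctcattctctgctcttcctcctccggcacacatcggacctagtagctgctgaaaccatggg
Cxcl1: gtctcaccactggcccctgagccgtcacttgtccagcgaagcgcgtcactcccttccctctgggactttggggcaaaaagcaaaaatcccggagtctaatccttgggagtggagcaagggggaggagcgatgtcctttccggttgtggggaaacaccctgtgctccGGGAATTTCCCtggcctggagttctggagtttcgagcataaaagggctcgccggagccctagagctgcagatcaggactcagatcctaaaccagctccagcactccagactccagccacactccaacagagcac
Tap1: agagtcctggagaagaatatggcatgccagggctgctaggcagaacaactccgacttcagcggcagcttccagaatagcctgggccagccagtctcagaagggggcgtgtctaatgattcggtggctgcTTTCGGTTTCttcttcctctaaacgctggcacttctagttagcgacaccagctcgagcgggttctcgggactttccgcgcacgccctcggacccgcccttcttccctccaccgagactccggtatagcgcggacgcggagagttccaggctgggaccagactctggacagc
Psmb8: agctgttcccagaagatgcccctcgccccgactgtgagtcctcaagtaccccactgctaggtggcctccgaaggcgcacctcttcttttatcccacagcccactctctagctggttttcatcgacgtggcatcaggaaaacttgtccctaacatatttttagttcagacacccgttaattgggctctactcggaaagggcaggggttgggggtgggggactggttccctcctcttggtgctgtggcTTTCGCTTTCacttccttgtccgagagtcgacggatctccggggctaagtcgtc
Hspb1: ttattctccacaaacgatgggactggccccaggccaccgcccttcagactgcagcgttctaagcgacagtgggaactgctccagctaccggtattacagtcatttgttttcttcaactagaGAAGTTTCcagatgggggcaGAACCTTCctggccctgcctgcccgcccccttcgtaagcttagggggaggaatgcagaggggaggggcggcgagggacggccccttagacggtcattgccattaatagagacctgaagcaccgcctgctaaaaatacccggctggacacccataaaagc
Hspa8: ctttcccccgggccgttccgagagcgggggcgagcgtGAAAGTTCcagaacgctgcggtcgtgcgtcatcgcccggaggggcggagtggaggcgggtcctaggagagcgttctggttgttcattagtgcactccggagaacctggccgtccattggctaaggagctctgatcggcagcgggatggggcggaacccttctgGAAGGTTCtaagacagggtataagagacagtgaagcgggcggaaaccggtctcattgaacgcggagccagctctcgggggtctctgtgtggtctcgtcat

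Markers of microglia and macrophages moved with the inflammatory genes. Of 22 tested, 14 were higher and 0 lower (16 and 0 after centring; 13 and 0 of 18 detected throughout), with a median of 3.11, 3.1 on dying replicate 1 and 2.65 on replicate 2. Their summed scaled signal was 3435 and 1694 in dying against 487 and 481 in sham pools, with surviving pools at 714 and 718 and naïve pools at 271 and 553. The brightest of them was C1qb, a chain of complement C1q, at 80.8 and 66.8 in sham and 902 and 440.4 in dying neurons (rise of 3.85, SE 0.57, adjusted p 0.00509). Tyrobp, a signalling adaptor of microglia, was 20.9 and 23.7 in sham and 432 and 170.2 in dying neurons and rose by 4.36 (adjusted p 0.00289). Both dying arrays were high in each case, replicate 1 the higher. Gpnmb, a membrane glycoprotein of phagocytes, was 3.68 and 3.54 in sham and 33.4 and 42.4 in dying neurons and rose by 4.14 (SE 0.44, adjusted p 0.00196). Lgals3, the lectin galectin 3, was 6.79 and 16.3 in sham and 457 on dying replicate 1, and the spot on replicate 2 was left out as non-uniform, so its rise of 6.19 (adjusted p 0.00228) rests on 1 dying array. Cd68, given above, was the fourth by p. Other defining genes of microglia were not called or not tested. Aif1 and Csf1r were not called, with differences of -0.14 and -0.34 before the subtraction, where the median gene was at -0.75. Both thus lay above the median gene. Cx3cr1, Ptprc and Laptm5 were not tested because they were not well above background on both arrays of either group. These genes were picked out after their values were seen.

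Of 10 blood and leukocyte genes on the array 6 were tested, 3 of them at background in sham and tested because both dying arrays detected them. Of the 6 tested 6 were higher and 0 lower (6 and 0 after centring; 3 and 0 of 3 detected throughout), with a median of 3.12; before the subtraction it was 2.36, and 1.86 with genes at background set to their bound. Their sum was 76.8 and 68.6 in dying against 17.2 and 15.9 in sham pools, with surviving pools at 34.0 and 24.0 and naïve pools at 17.4 and 9.95. The brightest was Cd3d, a chain of the T cell receptor complex, at 6.86 and 6.42 in sham and 34.4 and 18.6 in dying neurons (rise of 2.68, adjusted p 0.0131). S100a8, a calcium-binding protein of neutrophils, was at background in sham with 0.618 and 0.223 and at 6.47 and 12.7 in dying neurons, at least 10.6-fold higher (adjusted p 0.00217), its 3 probes running from 1.49 to 4.61. Hbb, beta globin of red cells, was 4.01 and 4.42 in sham and 15.3 and 13.6 in dying neurons and rose by 2.53 (SE 0.49, adjusted p 0.022). Endothelial and pericyte genes were 3 higher and 0 lower of 11 tested (6 and 0 after centring; 1 and 0 of 8 detected throughout), with a median of 1.55. Their sum was 425 and 186 in dying against 154 and 126 in sham pools, with surviving pools at 109 and 99.6 and naïve pools at 103 and 154. The brightest, Pdgfrb, a receptor of pericytes, was 34.2 and 26.4 in sham and 134 and 17.8 in dying neurons, with replicate 2 under the sham values (adjusted p 0.517). Vwf, the von Willebrand factor of vessel walls, was 25.1 and 18.4 in sham against 117 and 58.4 in dying neurons and rose by 2.69 (adjusted p 0.0186). Ly6c, a surface protein of endothelium and monocytes, was at background in sham with 0.176 and 0.321 and at 8.49 and 4.44 in dying neurons, at least 7.18-fold higher (adjusted p 0.00123), and Flt1, a receptor of vascular growth factors, with 0.221 and 0.259 in sham against 2.92 and 1.42 in dying neurons, at least 2.38-fold higher (adjusted p 0.00504).

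Astrocyte genes were 1 higher and 3 lower of 14 tested (2 and 3 after centring; 0 and 3 of 11 detected throughout), and their median of 0.26 ran from -0.21 to 0.66 over the settings and changed sign. Their sum was 10729.7 and 5714 in dying against 7604 and 5323 in sham pools, with surviving pools at 4307 and 4452 and naïve pools at 5214 and 7444. The brightest, Apoe, a lipid carrier, was 4251 and 2788 in sham and 9263 and 4126 in dying neurons (relative difference 1.6, adjusted p 0.225, and 0.0313 after centring), with overlap between the groups. Slc1a2, the main glutamate transporter of astrocytes, was 40.7 and 26.0 in sham against 5.63 and 7.81 in dying neurons and fell by 1.54 (adjusted p 0.00925), and Glul, glutamine synthetase, was 291 and 232 in sham against 53.9 and 77.1 in dying neurons and fell by 1.26 (adjusted p 0.0104), its probes running from -4.77 to -2.01. Fgfr3, a growth factor receptor, was at background in sham with 0.406 and 0.19 and at 1.97 and 3.46 in dying neurons, at least 3.05-fold higher (adjusted p 0.00775). Oligodendrocyte genes were 0 higher and 4 lower of 12 tested (2 and 2 after centring; 0 and 4 of 12 detected throughout), with a median of -0.32. Their sum was 1350.2 and 769 in dying against 2524 and 2267 in sham pools, with surviving pools at 460.0 and 509 and naïve pools at 1780.1 and 1553. Mal, a myelin lipid raft protein, was 25.2 and 27.1 in sham against 2.63 and 1.51 in dying neurons and fell by 2.96 (adjusted p 0.00188), and Cnp, a myelin phosphodiesterase, was 13.4 and 15.1 in sham against 4.01 and 5.44 in dying neurons (adjusted p 0.0291, and 0.0871 after centring). Both genes were lower in both injured groups than in sham. Interneuron genes were 1 higher and 2 lower of 13 tested (3 and 1 after centring; 0 and 1 of 10 detected throughout), and their median of 1.18 ran from -0.34 to 1.41 over the settings and changed sign. Their sum was 7139.9 and 2042 in dying against 2162 and 2399 in sham pools, with surviving pools at 2488 and 2612 and naïve pools at 1753 and 2473. Dying replicate 1 alone stood out, and the brightest, the neuropeptide gene Cck, was 1390.2 and 1479 in sham and 5035 and 1505 in dying neurons (adjusted p 0.226). Gad1, which makes GABA, was 1.14 and 1.14 in sham and 0.177 and 0.142 in dying neurons, at background there and at least 3.74-fold lower (adjusted p 0.00371). Pvalb, a calcium buffer, was 171 and 159 in sham against 57.6 and 66.9 in dying neurons (adjusted p 0.0323, and 0.146 after centring). Dlx2, a homeobox factor, was at background in sham with 0.172 and 0.196 and at 2.14 and 1.11 in dying neurons, at least 1.8-fold higher (adjusted p 0.00475). The part of other cell types in the differences between dying and sham neurons was not tested.

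**Figure D4:**
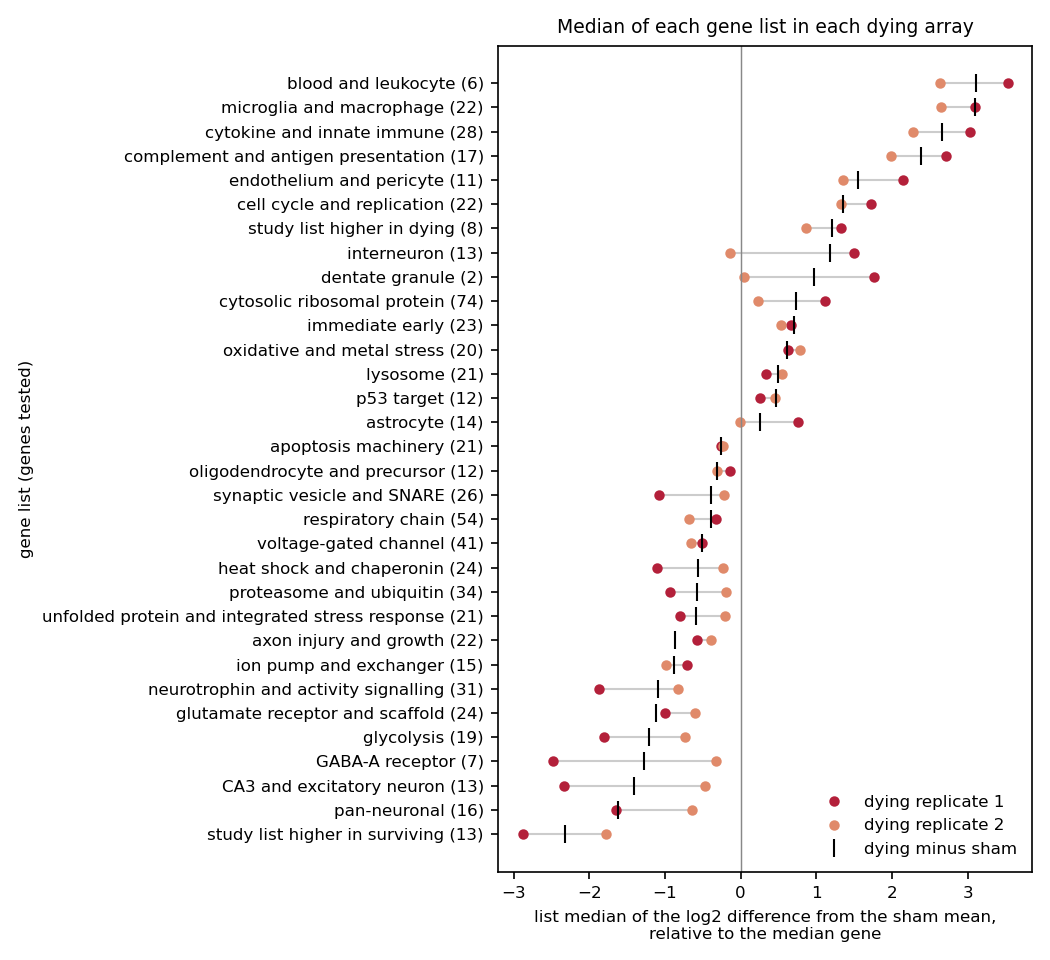
Median log2 difference from the sham mean relative to the median gene (horizontal axis, log2 units) of each gene list (vertical axis, number of genes tested in brackets), on each dying array (points) and for dying minus sham neurons (black ticks). Blood, microglial and cytokine lists lie above 2 on both arrays, while the pan-neuronal and CA3 lists and the study list higher in surviving neurons lie below 0 on both.

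**Figure D5:**
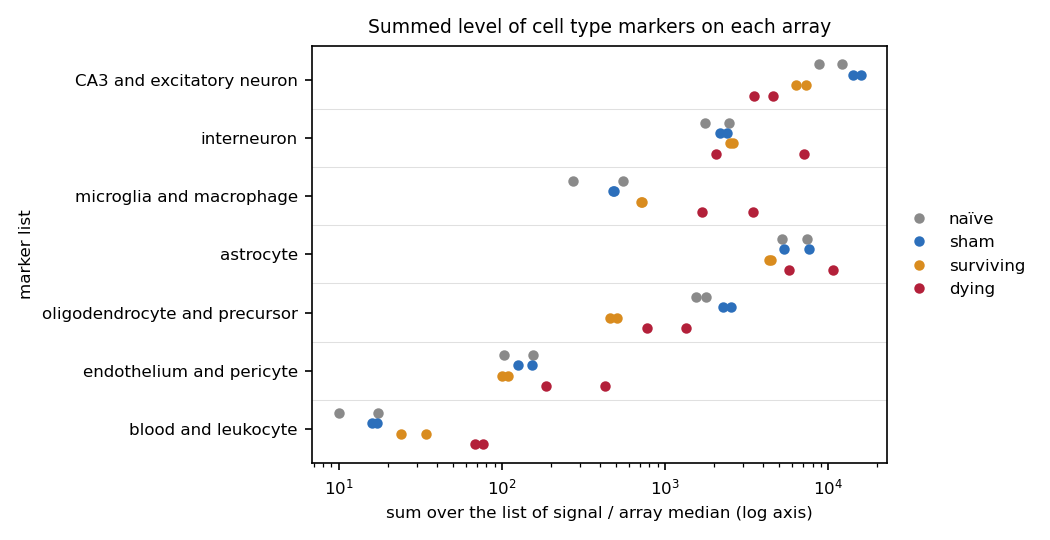
Sum of the scaled signal over the markers of each cell type (horizontal log axis, units of the array median) on each of the 8 arrays, by list (vertical axis); each point is 1 array. The microglial sum is 3435 and 1694 on the dying arrays against 487 and 481 on the sham arrays, and the CA3 sum 4598 and 3506 against 15829 and 14174.

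On their own slide, dying and surviving neurons were compared with the same test, which shares the dying arrays with the comparison above. The fit did not pair dying with surviving pools. Of 13150 genes 0 (0%) passed an adjusted p of 0.05 in limma, where the smallest adjusted p was 0.0728 and 2117 genes had an unadjusted p under 0.05, and the median difference was -0.32. Differences of the largest dying against sham genes were in this comparison 1.91 for Gal (adjusted p 0.113), 2.54 for Kcnn4 (0.137), 0.74 for Lcn2 (0.537) and 0.56 for Hspb1 (0.571). For genes low in dying neurons they were -1.72 for Gria2 (0.126), -1.62 for Bdnf (0.122), -2.05 for Uchl1 (0.12) and -0.56 for Pecr (0.509). List medians of dying minus surviving were 1.53 for microglia, 1.88 for blood, 0.77 for cytokines, -1.22 for pan-neuronal genes, -1.63 for CA3 genes, -0.94 for glycolysis and 0.19 for ribosomal proteins, against -0.25 over the genes tested between dying and sham. Against naïve neurons, which lie on the sham slide and share the dying arrays too, 2064 of 12259 genes (16.8%) were higher and 2679 (21.9%) lower in dying neurons. There Gal differed by 5.8 (adjusted p 0.000574), Timp1 by 7.1 (0.00157), Hspb1 by 5.81 (0.000784), Gria2 by -4.21 (0.0015) and Bdnf by -3.41 (0.0018), without subtraction of the median gene.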

How the data were processed

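RNA of laser-captured CA3 neurons was measured on 8 single-colour Agilent arrays. The processed intensity of each spot is, per the file headers, background-subtracted and detrended by Agilent Feature Extraction without scaling between arrays. The signal of the series table was deposited by the authors as processed signal divided by 1 constant per array, which is not stated; column medians were 0.217 and 0.149 (naïve), 0.131 and 0.149 (sham), 0.256 and 0.259 (surviving) and 0.212 and 0.282 (dying). Mean and background intensity values deposited by the authors were used for an alternative background correction.

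Spots marked non-uniform were dropped, the rest averaged per probe, each array divided by its median, values floored at 0.01 and log2 taken. Of 41012 probes, 23400 carry a symbol; 10729 were named by accession, 5577 by symbol and 3730 by synonym in the RefSeq annotation, and 3364 kept the name in the file. A 4-group model was fitted to all 8 arrays with limma 3.58.1 in R 4.3.3 (lmFit, eBayes, two-sided), with Benjamini-Hochberg adjustment over all 25623 probes tested, and the code was tested on simulated data. A gene was read from 1 probe, the brightest of those tested.

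Named genes were the 10 largest called differences in each direction, the 5 largest bounds in each direction, the members of each list with the smallest p, the brightest marker of other cell types and all members of the study's lists; 5 of the 141 so chosen are not reported here. Members and lists were chosen with earlier results of these data known. The number named per list, 3 or 5, was set after list results were seen. Scaling, filter, floor, probe choice, variance model and each array left out were varied; centring was chosen after seeing the data and replaced an earlier version of it.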

Additional observations from a re-analysis of the deposited data

How the results depend on the processing

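Of the 141 genes chosen for naming 131 passed the threshold, and under 23 other settings 83 of these stayed past it in every setting but the normexp background correction, and 0 in every setting. None of the 141 reversed under the 6 other scalings. Leaving out each array in turn gave from 1355 to 6244 genes called, with a lone array assumed to vary like the other groups, and from 1910 to 4336 genes over 2-fold. After normexp correction 0 genes were called by limma, 989 had an unadjusted p under 0.05 and 288 were over 2-fold. There the median corrected signal was 405 and 116 on the dying and 81.2 and 80.8 on the sham arrays. It was 116 and 113 on the surviving and 700 and 86.8 on the naïve arrays. Some differences stayed large, with 4.29 for Gal (5.74 in the main setting) and -5.30 for RGD1562397 (-6.29). Others shrank more, with 2.65 for Slamf9 (6.97). The 2-fold count was 1629 in the main setting, 3026 when replicates had to be within 50% of the larger, 4940 without the replicate filter and 952 with naïve in place of sham arrays.

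Among single genes Inpp5d reversed to -0.0495 after normexp correction. With naïve in place of sham the probe used for Skil was not tested, so the 1.9 there is that of its other probe, which was 1.26 against sham. This is a change of probe and not a reversal; the difference of the probe used was -2.31 against naïve and -4.29 against sham. With each array left out in turn Pdgfrb ran from -0.75, without dying replicate 1, to 2.16, and Inpp5d from -0.15, without dying replicate 1, to 0.66, being -0.14 without sham replicate 2. The cause was not tested. Replicate numbers did not pair the dying and sham arrays, whose deviations under the same number had a correlation of -0.0044 across genes. A fit with the replicate block called 4996 genes. Pairing of dying with surviving pools was not tested. Signal over background limits dim genes to bounds.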

Other observations

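Probes without a gene symbol were tested as well. Of 10931 such probes 1932 were called higher and 2697 lower in dying than in sham neurons, with a median difference of 0.12 before any subtraction. Genes with only a provisional name made up 29.3% of the genes tested, 31.1% of those called lower and 25.3% of those called higher in dying neurons. Of 2123 genes with several tested probes, 649 had probes whose differences had opposite signs.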
